A study of Mus musculus with 20 samples.

Results

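The transcription factors that open the bone-forming program were followed in clonal lines of the mouse cell line ATDC5, which takes the cartilage pathway in culture. The 9 genes, of 27911 in the expression table, were Runx1, Runx2 and Runx3, Sp7 (also called osterix), Dlx3, Dlx5 and Dlx6, and Msx1 and Msx2. They were taken by name as the Runx, Dlx and Msx factors and Sp7 of the osteogenic pathway. All 9 passed the filter on low counts that left 15467 genes for testing, Dlx3 only through differentiated cells.

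Poly(A) RNA was sequenced in 4 groups. Kmt2d-/- clones carry a deletion of the catalytic SET domain of Kmt2d, an enzyme that methylates histone H3, on both alleles, and Kmt2d+/+ clones do not. There were 3 Kmt2d+/+ clones and 2 Kmt2d-/- clones, each taken undifferentiated at day 0 and after 7 days in medium with insulin, transferrin, selenium, ascorbic acid and beta-glycerophosphate, which gave 10 libraries. Every replicate is 1 clonal line, so a difference between genotypes and a difference between the founder cells of these 5 clones cannot be told apart. Levels are given as CPM, the count of a gene relative to the TMM-scaled total of its library, and as CPM per kilobase of annotated exon where genes are compared with each other.

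Runx proteins bind DNA together with the partner Cbfb. Runx2 is required for osteoblasts to form and drives the hypertrophic maturation of chondrocytes, while Runx1 and Runx3 act in early cartilage condensations and in maturing chondrocytes. Sp7 is a zinc finger factor that acts downstream of Runx2 in the commitment to bone. Dlx3, Dlx5 and Dlx6 are homeodomain factors induced by bone morphogenetic protein (BMP) signalling, and Dlx5 can activate Runx2 and Sp7. Msx1 and Msx2 are related homeodomain factors, mostly repressors, that are expressed in progenitors and can oppose Dlx proteins at shared sites.

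RefSeq promoter sequences (build GRCm38.p6) matched 5 of the 9 genes, as windows of 250 bases before to 50 bases after each annotated start. The Runx genes are shown first because they share an element that few other windows hold. Runx1 and Runx3 each have a window at an upstream and a downstream start, and Runx2 has 1 window. The upstream window of each Runx gene holds a pair of Runx cores, the hexamer TGTGGT, both in the reverse orientation as ACCACA and with 2 bases between them. In the following 30-base stretches, read 5′ to 3′ on the strand of the gene, the capitals mark these cores.

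Runx1, chr16:92826025-92826054, minus strand: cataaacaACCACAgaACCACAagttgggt

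Runx2, chr17:44814583-44814612, minus strand: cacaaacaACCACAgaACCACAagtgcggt

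Runx3, chr4:135120503-135120532, plus strand: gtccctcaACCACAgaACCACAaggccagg

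The Runx1 stretch spans bases 21 to 50 after its start and the Runx2 stretch bases 16 to 45, and both lie wholly in an annotated exon. The Runx3 stretch lies 142 to 113 bases before its start, outside annotated exons. Runx1 and Runx2 are identical at 27 of the 30 positions, Runx1 and Runx3 at 19, and Runx2 and Runx3 at 21. Of 32851 promoter windows of 300 bases, 7 (0.0213%) hold such a pair on 1 strand, and 3 of these 7 belong to Runx1, Runx2 and Runx3. The pair was not among the planned motifs and has the spacing seen in the Runx windows. Their place among the 7 was thus fixed in advance and is a description, not a test. A single TGTGGT on either strand is common by comparison and occurs in 16.8% of windows. Runx2 has another core, 80 bases before its start. The stretch shown for it lies wholly in an annotated exon that begins upstream of the RefSeq start.

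Runx2, chr17:44814690-44814719, minus strand: gtgaggtcacaaACCACAtgattctgtctc

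The downstream windows of Runx1 and Runx3 hold no TGTGGT, and that of Runx3 holds 3 GC boxes (GGGCGG on either strand, found in 35.7% of windows), a motif to which Sp factors can bind. These matches describe the letters of the windows and do not show binding. The counts are summed over all transcripts of a gene, so the use of the 2 starts of Runx1 or of Runx3 could not be separated.

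The Msx windows are shown because both genes were lower in Kmt2d-/- clones, as described further on. Both hold a GC box and no Runx core. In the Msx1 stretch, which is the 100 bases before the start, the capitals mark the GC box in reverse orientation.

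Msx1, chr5:37824586-37824685, minus strand: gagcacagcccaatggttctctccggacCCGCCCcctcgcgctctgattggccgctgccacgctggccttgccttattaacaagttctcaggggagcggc

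The Msx2 window holds the homeodomain core TAATTA, present in 5.3% of windows, and a GC box, each marked in capitals in its own stretch. Both stretches lie in an annotated exon that begins upstream of the RefSeq start. The other homeodomain core searched, TAATTG, is in 8.0% of windows and in none of the 7 windows of these genes.

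Msx2, chr13:53472950-53472979, minus strand: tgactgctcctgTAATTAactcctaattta

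Msx2, chr13:53472923-53472952, minus strand: ttatttcaaacgGGGCGGgggaagggcccc

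**Figure D1:**
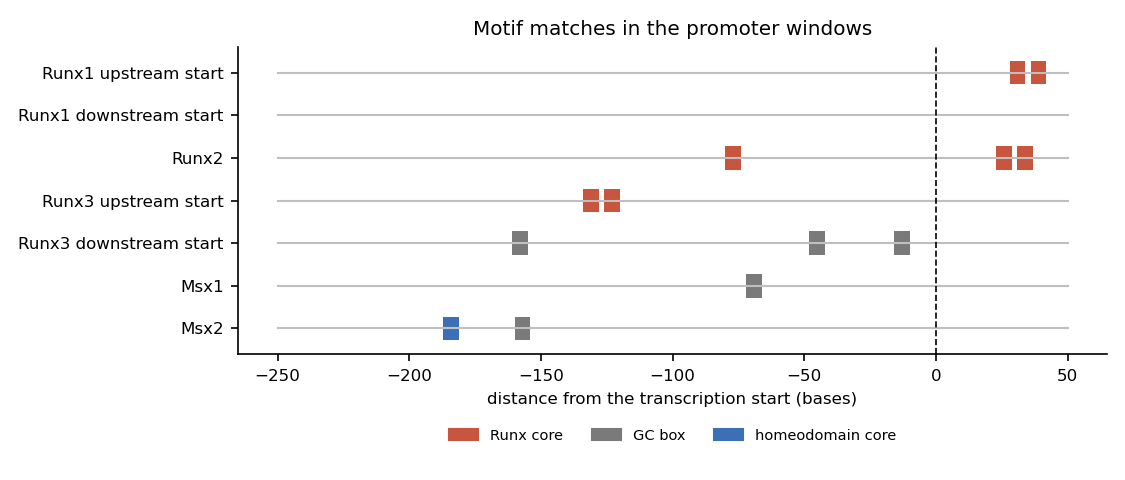
Motif matches in the 7 promoter windows, by distance in bases from the annotated transcription start (dashed line). Each horizontal line is a window of 300 bases and each block a match on either strand; the paired Runx cores are in Runx1, Runx2 and the upstream window of Runx3, and the downstream windows hold none.

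The libraries held 35792773 to 66237188 counts, so 3 counts corresponded to 0.0859 CPM in the shallowest and 0.0409 CPM in the deepest. Depth went with day, at 35792773 to 47938043 counts at day 0 and 54498430 to 66237188 at day 7. Its part in day changes of genes near 3 counts was not tested. At day 0 Kmt2d itself was counted at 205 and 148 CPM in Kmt2d-/- and 185 to 211 CPM in Kmt2d+/+ clones, and at 175 and 113 against 173 to 207 CPM at day 7. A count over the whole gene does not measure the deleted domain and therefore checks nothing about the labels. Col2a1, the main collagen of cartilage, was 126 to 332 CPM at day 7 in Kmt2d+/+ clones and 20471 and 24450.5 CPM in Kmt2d-/- clones. All 14 chondrocyte markers were detected in every group, and their summed level was 61.7 to 430 CPM in Kmt2d+/+ and 2010 to 6199 CPM in Kmt2d-/- clones at day 0. At day 7 the sums were 624 to 1299 and 27057 to 31448 CPM. The 9 osteoblast markers, which include Sp7 and are led by Col1a1, summed to 8114 to 30219 CPM over the 10 libraries. The skeletal muscle markers Myod1, Myog and Ckm were at or under the level of 3 counts in every group, the blood and immune markers summed to at most 10.3 CPM with Adgre1 and Cd3e at or under that level in every group, and 5 endothelial markers to at most 8.79 CPM, nearly all of it Pecam1. The 5 epithelial markers summed to at most 2.08 CPM, the 5 adipocyte markers to 9.65 to 35.7 CPM and the 5 neural markers, led by Sox2 and Tubb3, to 24.8 to 130 CPM. The part of the chondrocyte difference in any result below was not tested, and in bulk RNA fewer cells of a type and less RNA per cell cannot be told apart.

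**Figure D2:**
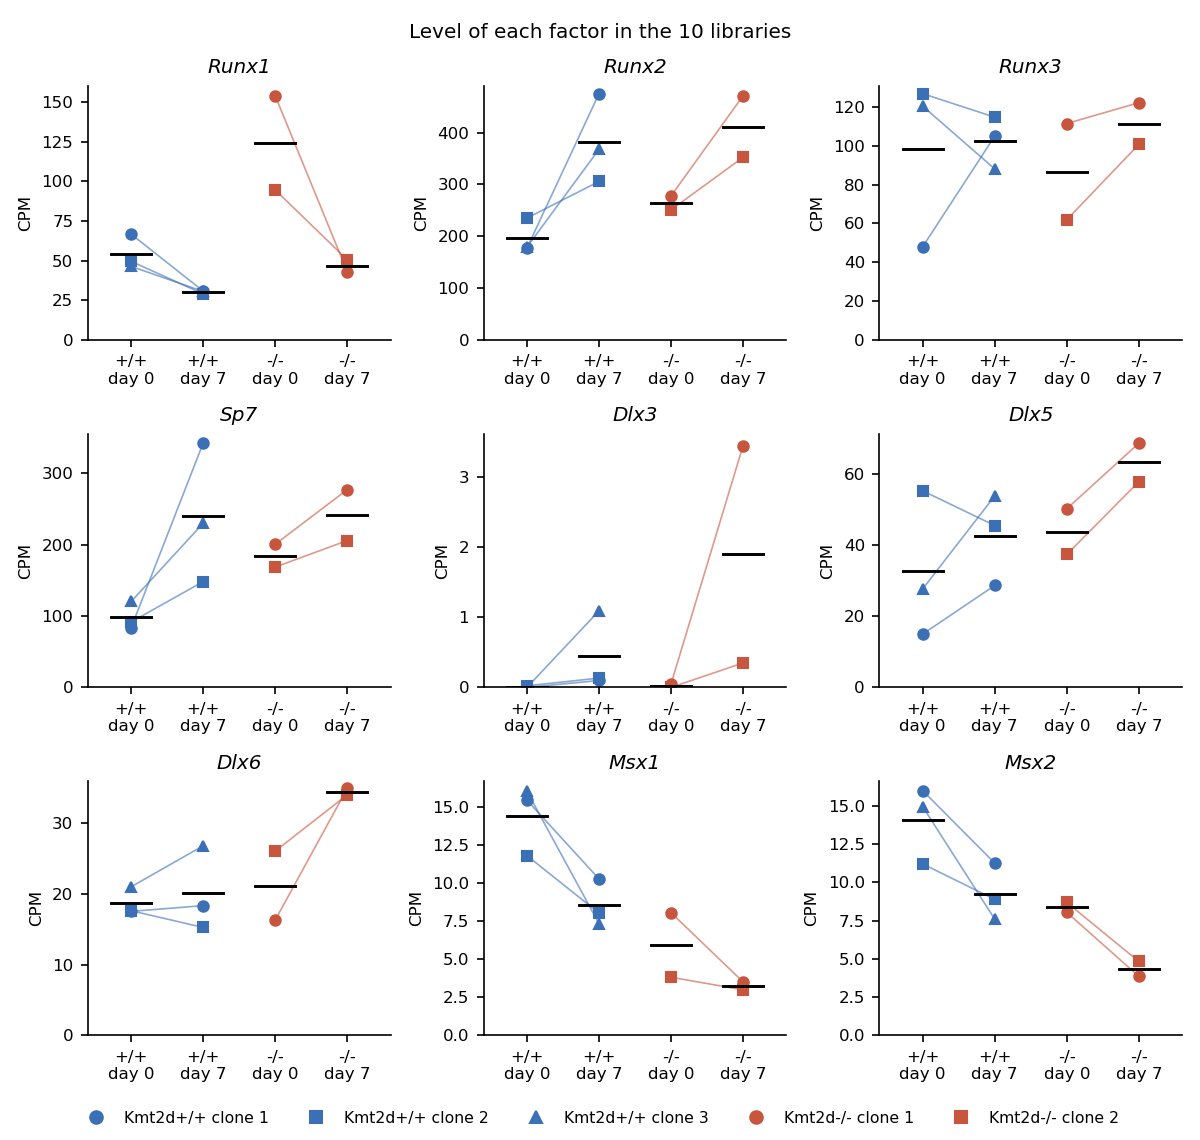
Level of each of the 9 factors in the 10 libraries, in CPM on linear axes that start at 0. Points are clones, lines join the 2 days of a clone and black bars are group means; Runx2 and Sp7 were higher at day 7 in every clone, Runx1, Msx1 and Msx2 were lower, and Msx1 and Msx2 were lower in both Kmt2d-/- clones than in any Kmt2d+/+ clone of the same day.

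Runx1 was the single factor that edgeR called between genotypes, and the call was in undifferentiated cells. At day 0 Runx1 was 66.6, 49.5 and 46.3 CPM in Kmt2d+/+ clones 1, 2 and 3 and 154 and 94.6 CPM in Kmt2d-/- clones 1 and 2. The groups did not overlap, and the first Kmt2d-/- clone was well above the second. Runx1 was 2.30-fold higher in Kmt2d-/- clones (log2 fold change 1.20 with SE 0.23; adjusted p = 0.0395 in edgeR's quasi-likelihood test). With clone as a block the adjusted p was 0.0702. The call was also lost when any 1 of the 5 clones was left out, and the log2 fold change was then 0.80 without Kmt2d-/- clone 1 and 1.51 without Kmt2d-/- clone 2.

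Runx1 was lower after differentiation. At day 7 it was 30.7, 28.9 and 30.5 CPM in Kmt2d+/+ clones and 43.0 and 50.5 CPM in Kmt2d-/- clones, so it was lower than at day 0 in all 5 clones and the genotypes still did not overlap. In Kmt2d-/- clones the log2 fold change from day 0 to day 7 was -1.41 (SE 0.26; edgeR adjusted p = 0.0447), which is a level 2.66-fold lower. This call too was lost without any 1 clone, with log2 fold changes of -0.91 without Kmt2d-/- clone 1 and -1.85 without clone 2. In Kmt2d+/+ clones the change was -0.85 (SE 0.21; edgeR adjusted p = 0.0527), and with clone as a block it passed, at -0.83 (adjusted p = 0.0396). The remaining genotype difference at day 7, a log2 fold change of 0.64 (SE 0.23; 95% interval 0.12 to 1.16), did not pass (edgeR adjusted p = 0.173). The change over 7 days was not shown to differ between genotypes (interaction -0.56 on the log2 scale with SE 0.33; unadjusted p = 0.124 in edgeR).

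Runx2, the master regulator of osteoblasts, was the most abundant Runx gene and rose with differentiation. It was 177, 235 and 179 CPM in Kmt2d+/+ clones 1, 2 and 3 at day 0 and 475, 306 and 368 CPM at day 7. Kmt2d-/- clones had 278 and 251 CPM at day 0, then 471 and 352 CPM at day 7. It was higher at day 7 in all 5 clones, by 1.30-fold in Kmt2d+/+ clone 2 to 2.69-fold in clone 1. In Kmt2d+/+ clones the rise was 1.94-fold (log2 fold change 0.96 with SE 0.21; edgeR adjusted p = 0.0382). It was kept without clone 2 and lost without any other clone, Kmt2d-/- clones included, with the log2 fold change lowest, 0.70, without clone 1. In Kmt2d-/- clones the log2 fold change was 0.64 (SE 0.25; edgeR adjusted p = 0.279), and the interaction was -0.32 (SE 0.32; unadjusted p = 0.349 in edgeR).

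Both Kmt2d-/- clones had more Runx2 than any Kmt2d+/+ clone at day 0, yet the difference did not pass the test (log2 fold change 0.42 with SE 0.23; edgeR adjusted p = 0.331). At day 7 the genotypes overlapped and the log2 fold change was 0.10 (95% interval -0.41 to 0.62; edgeR adjusted p = 0.853), an interval that includes both no difference and one of about the size seen at day 0.

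Runx3 varied between clones of 1 genotype, and its groups overlapped at both days. Kmt2d+/+ clones 1, 2 and 3 had 47.9, 127 and 120 CPM at day 0, then 105, 115 and 88.1 CPM at day 7. Kmt2d-/- clones 1 and 2 had 111 and 61.8 CPM at day 0, then 122 and 101 CPM at day 7. Clone 1 of the Kmt2d+/+ group and clone 2 of the Kmt2d-/- group were low at day 0, and both were near the other clones by day 7. No comparison passed, with edgeR log2 fold changes between -0.18 for genotype at day 0 and 0.36 for day in Kmt2d-/- clones (adjusted p from 0.783 to 0.935 over the 4 comparisons).

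Sp7 rose together with Runx2 in Kmt2d+/+ clones. It was 83.7, 91.7 and 120 CPM in Kmt2d+/+ clones 1, 2 and 3 at day 0 and 342, 148 and 230 CPM at day 7. Kmt2d-/- clones had 201 and 169 CPM at day 0, then 277 and 206 CPM at day 7. The undifferentiated Kmt2d-/- clones were thus above every undifferentiated Kmt2d+/+ clone and within the range of the differentiated ones.

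In Kmt2d+/+ clones Sp7 was 2.44-fold higher at day 7 (log2 fold change 1.28 with SE 0.30; edgeR adjusted p = 0.0439). The rise was 4.09-fold in clone 1, 1.62-fold in clone 2 and 1.91-fold in clone 3. The call was kept without clone 2 and lost without any other clone, with a log2 fold change of 0.83 without clone 1, and the limma-voom adjusted p was 0.0505. In Kmt2d-/- clones the rises were 1.38-fold and 1.22-fold (log2 fold change 0.39 with SE 0.36; edgeR adjusted p = 0.703). The difference between the rises was -0.90 on the log2 scale (SE 0.46; 95% interval -1.94 to 0.14; unadjusted p = 0.0832 in edgeR), the smallest interaction p of the 9 factors, and it did not pass. The genotype difference in Sp7 was 0.90 at day 0 (SE 0.32; edgeR adjusted p = 0.161) and 0.01 at day 7 (SE 0.32; adjusted p = 0.994).

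The Dlx genes gave no call in any of these edgeR comparisons. Dlx3, which is known for roles in tooth, hair and bone, was almost silent at day 0, with 0, 1 and 0 counts in Kmt2d+/+ clones and 2 and 0 in Kmt2d-/- clones. At day 7 it had 6, 9 and 80 counts in Kmt2d+/+ clones and 179 and 19 in Kmt2d-/- clones. Every clone had more at day 7, and within each genotype a single clone held most of the counts. Scaled for depth, the summed counts were 59.0 times higher at day 7 in Kmt2d+/+ clones (95% exact interval 10.3 to 2355, from 95 counts against 1) and 79.0 times higher in Kmt2d-/- clones (21.6 to 657, from 198 against 2). These intervals cover counting error only and not the spread between clones. In edgeR the Dlx3 rise had adjusted p = 0.0927 in Kmt2d+/+ and 0.156 in Kmt2d-/- clones, and with clone as a block 0.0288 and 0.0338. With at most 2 counts per library at day 0, Dlx3 passed the filter on low counts only through day 7 libraries. A rise was thus built into its being tested, and these values describe the rise without testing it. At day 7 the genotypes overlapped.

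Dlx5 and Dlx6 lie tail to tail on chromosome 6, with 9236 bases between them. Dlx5 was 15.0, 55.2 and 27.6 CPM in Kmt2d+/+ clones at day 0 and 28.6, 45.5 and 53.8 CPM at day 7. Dlx5 in Kmt2d-/- clones was 50.1 and 37.3 CPM at day 0, then 68.6 and 57.7 CPM at day 7. At day 7 both Kmt2d-/- clones were above every Kmt2d+/+ clone, by a log2 fold change of 0.57 (SE 0.47; edgeR adjusted p = 0.555).

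Dlx6 was 17.5, 17.6 and 21.0 CPM in Kmt2d+/+ clones at day 0 and 18.3, 15.2 and 26.8 CPM at day 7. Dlx6 in Kmt2d-/- clones was 16.3 and 26.1 CPM at day 0, then 34.9 and 34.0 CPM at day 7. It too did not overlap between genotypes at day 7, but without passing the test (log2 fold change 0.78 with SE 0.28; edgeR adjusted p = 0.168). Dlx6 is overlapped by an antisense gene, Dlx6os1, and a strand setting for the counting is not given in the sources used here, so reads of the pair cannot be told apart.

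Msx1 and Msx2 were lower in Kmt2d-/- than in Kmt2d+/+ clones at both days and lower after differentiation, without a call in edgeR. Msx1 was 15.4, 11.8 and 16.0 CPM in Kmt2d+/+ clones at day 0 and 8.04 and 3.81 CPM in Kmt2d-/- clones. At day 7 Msx1 was 10.3, 8.02 and 7.32 CPM against 3.50 and 2.97 CPM. The genotypes did not overlap at either day. The log2 fold change was -1.28 at day 0 (SE 0.36; edgeR adjusted p = 0.0892) and -1.40 at day 7 (SE 0.36; adjusted p = 0.0812), neither of which passed. DESeq2 called both, with adjusted p = 0.00612 and 0.00285, and no other alternative fit of all 10 libraries called either. With clone as a block the limma-voom adjusted p was 0.0925 at day 0 and 0.0892 at day 7.

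Msx2 was 16.0, 11.2 and 15.0 CPM in Kmt2d+/+ clones at day 0 and 8.04 and 8.69 CPM in Kmt2d-/- clones. At day 7 Msx2 was 11.3, 8.89 and 7.59 CPM against 3.85 and 4.82 CPM. Again every Kmt2d-/- value was under every Kmt2d+/+ value of its day. The log2 fold change was -0.75 at day 0 (SE 0.27; edgeR adjusted p = 0.167) and -1.09 at day 7 (SE 0.28; adjusted p = 0.0779). DESeq2 called the day 7 difference (adjusted p = 0.00262) and not that at day 0 (0.0533). No other alternative fit of all 10 libraries called either, and with clone as a block the limma-voom adjusted p was 0.0954 at day 7 and 0.214 at day 0.

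From day 0 to day 7 both Msx genes were lower in 5 of 5 clones. For Msx1 the log2 fold changes were -0.76 (SE 0.31) in Kmt2d+/+ and -0.87 (SE 0.38) in Kmt2d-/- clones, with edgeR adjusted p of 0.168 and 0.328. For Msx2 they were -0.60 (SE 0.24) and -0.95 (SE 0.29), with edgeR adjusted p of 0.16 and 0.168. None of these passed in edgeR, and DESeq2 called the fall of Msx2 in Kmt2d-/- clones (log2 fold change -0.94; adjusted p = 0.0388). With clone as a block in edgeR that fall did not pass (adjusted p = 0.07).

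**Figure D3:**
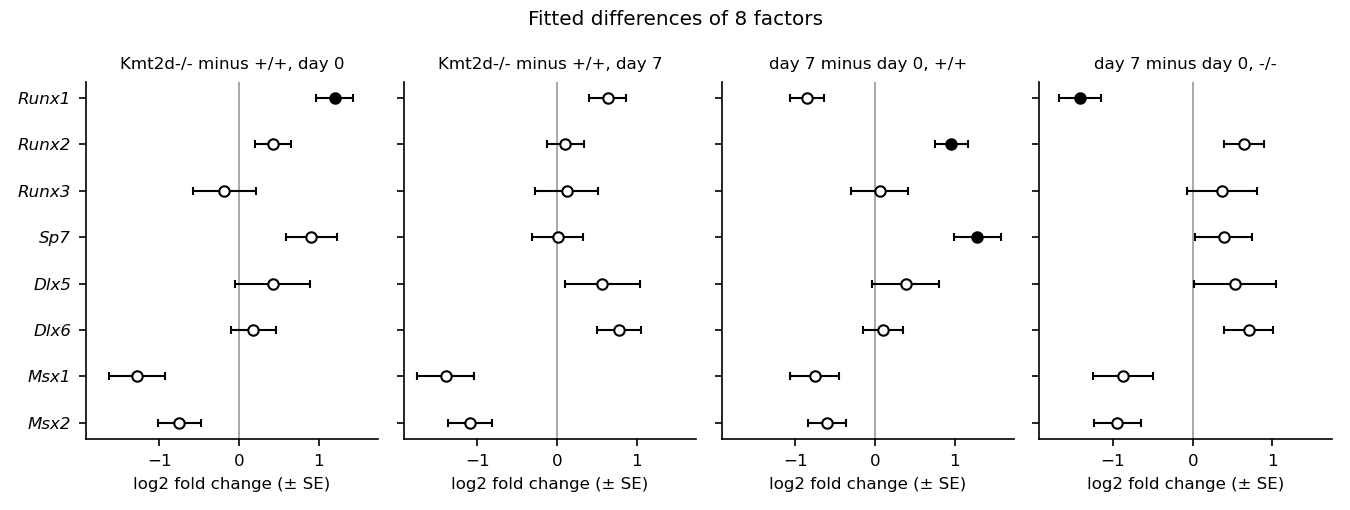
Log2 fold changes with their standard errors for 8 factors in the 4 comparisons, from the edgeR model; Dlx3 is left out because its day 0 counts are near 0. Filled points passed an adjusted p of 0.05: Runx1 for genotype at day 0, Runx2 and Sp7 for day in Kmt2d+/+ and Runx1 for day in Kmt2d-/-.

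Counted over the set, edgeR called 0 of 9 factors for genotype at day 7, where it called 1.87% of all genes tested. There 4 factors had an unadjusted p under 0.05, as had 19.9% of all genes, DESeq2 called 2 (10.1% of all genes) and limma-voom 0 (3.45%). For genotype at day 0 it called 1 of 9, against 2.15% of all genes (1.17% higher, the direction of Runx1). For day it called 2 of 9 in Kmt2d+/+ clones, against 5.08% of all genes (3.05% higher, the direction of Runx2 and Sp7). It called 1 of 9 for day in Kmt2d-/- clones, against 1.27% (0.595% lower, the direction of Runx1). With a set of 9 these shares are too coarse to be set apart from the background. The interaction called 0 of 9 factors and 0 of all genes in edgeR, and 0 factors had an unadjusted interaction p under 0.05. DESeq2 called 22 genes and 0 factors for the interaction, and limma-voom called 0 of either.

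The other fits called different shares of all genes, against which the counts of factors and of listed genes under those fits are to be read. DESeq2 called 10.6% of genes for genotype at day 0, 14.3% for day in Kmt2d+/+ and 6.82% for day in Kmt2d-/- clones, and 2, 4 and 3 of the 9 factors. In limma-voom these shares were 1.72%, 5.08% and 1.16%, with 1 factor in each. With clone as a block they were 1.25%, 18% and 5.57%, with 0, 4 and 2 factors, and 2.86% for genotype at day 7 with 0 factors. An unadjusted p under 0.05 in edgeR was found for 20.2% of genes for genotype at day 0, 24.7% for day in Kmt2d+/+ and 14.8% for day in Kmt2d-/- clones. Of the 9 factors 4, 6 and 6 had such a p. Dlx3, which passed the edgeR filter only through day 7 libraries, is in the day counts of DESeq2, the block and the unadjusted p.

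Ranges that did not overlap between the 3 Kmt2d+/+ and 2 Kmt2d-/- clones were seen for 5 of 9 factors at each day. Over all genes tested, 37.7% did not overlap at day 7 and 36.9% at day 0. At day 7 Runx1, Dlx5 and Dlx6 were higher in Kmt2d-/- clones, where 17.9% of all genes were, and at day 0 Runx1, Runx2 and Sp7 were, with 18.6% of all genes. Msx1 and Msx2 were lower at both days, with 19.8% of all genes at day 7 and 18.3% at day 0. In all 5 clones Runx2, Sp7 and Dlx3 were higher at day 7, as 20.2% of all genes were. Runx1, Msx1 and Msx2 were lower in all 5, as 18.8% of all genes were. For Dlx3 a rise was built into its passing the filter.

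Per kilobase of exon, Sp7 was the most abundant factor in every group. It was 29.0 ± 5.67 CPM per kb (SD, n = 3) at day 0 and 70.7 ± 28.7 (n = 3) at day 7 in Kmt2d+/+ clones. The same values in Kmt2d-/- clones were 54.3 ± 6.65 and 71.0 ± 14.8 (SD, n = 2 each). Runx2 was next, at 22.3 ± 3.73 and 43.3 ± 9.71 CPM per kb (SD, n = 3) in Kmt2d+/+ and 29.9 ± 2.16 and 46.6 ± 9.51 (SD, n = 2) in Kmt2d-/- clones. The ranges of Sp7 and Runx2 overlapped in both Kmt2d+/+ groups and in neither Kmt2d-/- group. In day 0 Kmt2d+/+ clones the range of Sp7 also overlapped that of Runx3. The length counts every annotated exon of a gene, 3398 bases for Sp7, 8837 for Runx2 and 12025 for Runx1. Which transcripts these cells use was not tested, and the order here and below depends on these lengths. In CPM not divided by length, Runx2 was above Sp7 in every library.

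Runx3 and Dlx5 followed, between 14.4 and 27.9 CPM per kb as group means. Their ranges overlapped in every group except day 7 Kmt2d-/-, where Dlx5 was above Runx3. Dlx6 lay under these, at 7.88 to 14.5 CPM per kb, with a range that overlapped that of Dlx5 in day 0 Kmt2d+/+ clones. In that group the range of Runx2 overlapped those of Runx3 and Dlx5 too. Runx1, Msx1 and Msx2 shared the low end at 4.29 to 4.65 CPM per kb in day 0 Kmt2d+/+ clones and could not be ordered there. In Kmt2d-/- clones Runx1 stood apart from both, at 10.3 ± 3.49 CPM per kb (SD, n = 2) at day 0 against 1.91 for Msx1 and 2.55 for Msx2. Its range at day 0 overlapped those of Dlx6 and Runx3. Dlx3 was last in each group, at 0.00297 to 0.727 CPM per kb, and at day 7 in Kmt2d-/- clones its range overlapped those of Msx1 and Msx2.

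**Figure D4:**
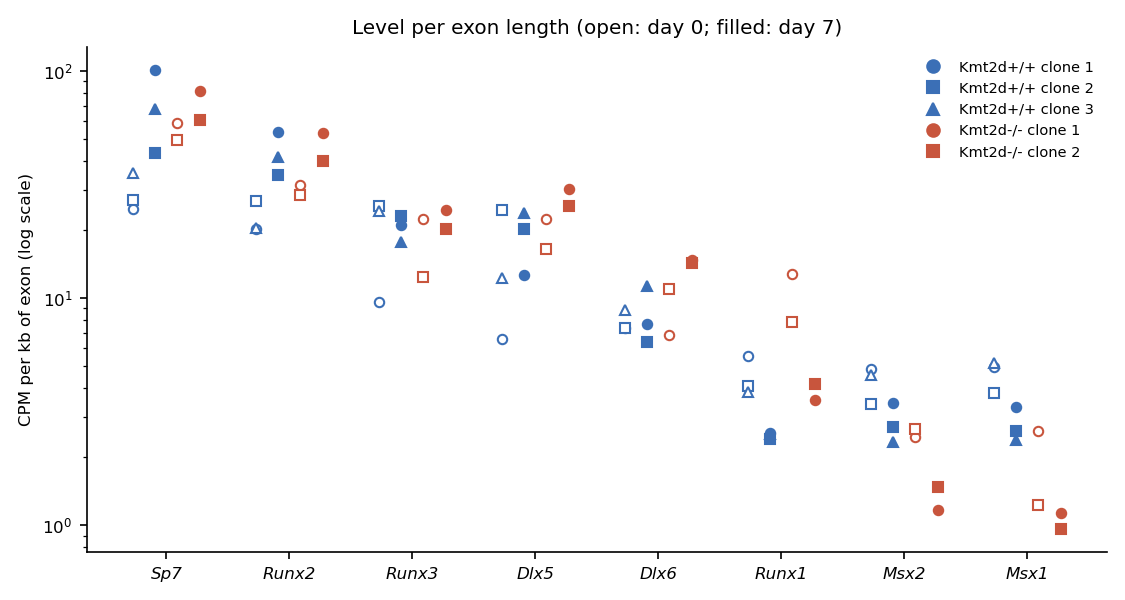
Level of 8 factors in CPM per kilobase of exon (log axis) in each library, open at day 0 and filled at day 7, ordered by abundance; Dlx3 is left out because some libraries have 0 counts. Sp7 and Runx2 were the most abundant, and the Msx genes fell to near 1 CPM per kb in Kmt2d-/- clones at day 7.

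Profiles across the 10 libraries were compared by the root mean square distance between log2 CPM values centred on each gene's mean, as a description without a test, since all genes share libraries and depth. Runx2 and Sp7 were the closest of all member pairs, at 0.28, followed by Msx1 and Msx2 at 0.38 and by Runx3 and Dlx5 at 0.48. Dlx5 was no nearer to its chromosome neighbour Dlx6, at 0.57. Among all 12358 genes averaging 1 CPM or more, the nearest to Runx2 were Cdc25b, Dnmt3a and Rilpl2, at 0.15 each, where the median gene was at 0.62. Those nearest to Sp7 were Slc46a3, Pcmtd2 and Coq8a, at 0.22 to 0.26. For Dlx5 they were Gm26566, Hp1bp3 and Dnase2a, at 0.24 to 0.25, and for Msx2 Ptpn9, Prkca and Micall1, at 0.18 to 0.21.

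The medians of the genes around the Msx loci were above 0, while Msx1 and Msx2 themselves were lower in Kmt2d-/- clones. Within 5 Mb on either side of Msx1, 72 genes had a median genotype log2 fold change of 0.27 at day 7 and 0.26 at day 0. Around Msx2, 91 genes had medians of 0.20 and 0.28. For Runx1, the 56 genes around it had medians of 0.21 and 0.15, on the same side as Runx1 itself. Around Sp7, 122 genes had medians of -0.37 and -0.26, and around Dlx5 and Dlx6, 27 genes had -0.19 and -0.26. Around Runx2, Runx3 and Dlx3 the medians were 0.009 to 0.20 over the days. Over all genes the medians were -0.02 at day 7 and 0.01 at day 0. A median does not show each neighbouring gene, and a part of the region in any of these differences was not tested.

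All 25 listed partners and modulators of Runx proteins were tested, and for genotype edgeR called 1 of them, Twist2. Cbfb, the obligate partner, was 269.8 to 386 CPM in day 0 libraries and 312 to 396 CPM at day 7, and its genotype log2 fold change was 0.21 at both days (SE 0.17; edgeR adjusted p = 0.562 at day 7 and 0.549 at day 0). Twist2, a basic helix-loop-helix factor whose protein can block Runx2 from binding DNA, was 14.5, 13.3 and 17.3 CPM in Kmt2d+/+ and 4.57 and 6.24 CPM in Kmt2d-/- clones at day 0. At day 7 Twist2 was 7.98, 11.2 and 12.6 against 1.46 and 2.04 CPM.

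Twist2 had a genotype log2 fold change of -2.60 at day 7 (SE 0.33; edgeR adjusted p = 0.0127), which is 6.04-fold lower. At day 0 its log2 fold change was -1.48 (edgeR adjusted p = 0.0471), 0.059 with clone as a block and 0.0506 in limma-voom. Leaving out 1 clone lost the Twist2 call at day 7 for Kmt2d+/+ clone 3 and for either Kmt2d-/- clone, and at day 0 for all but Kmt2d+/+ clone 2. The close relative Twist1 had no edgeR call. Its means were 51.1 ± 14.0 CPM (SD, n = 3) in Kmt2d+/+ and 75.3 ± 13.2 CPM (SD, n = 2) in Kmt2d-/- clones at day 0 (log2 fold change 0.56; edgeR adjusted p = 0.382), and 58.6 ± 23.2 against 59.3 ± 1.81 CPM at day 7 (log2 fold change 0.02; adjusted p = 0.986). Over the list the median genotype log2 fold change was 0.02 at day 7 and 0.09 at day 0. For day the list had 0 edgeR calls in either genotype. In Kmt2d+/+ clones 5 partners had an unadjusted p under 0.05, DESeq2 called 3 and limma-voom 1, and 3 were called with clone as a block. In Kmt2d-/- clones 2 had an unadjusted p under 0.05, DESeq2 called 2 and limma-voom 0, and 1 was called with the block.

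The BMP inputs, the ligands, receptors and Smad transducers that induce Dlx and Msx genes, had 10 of 12 genes tested, since Bmp2 and Bmp7 were too low. For day edgeR called 1 of them, Smad9, a receptor-activated Smad, which fell in both genotypes. It was 48.7, 40.7 and 51.9 CPM at day 0, then 17.0, 11.7 and 16.0 CPM at day 7 in Kmt2d+/+ clones (log2 fold change -1.66; edgeR adjusted p = 0.0295). Smad9 in Kmt2d-/- clones was 33.8 and 55.0 CPM at day 0, then 5.35 and 12.2 CPM at day 7 (log2 fold change -2.34; adjusted p = 0.0397). The Smad9 call was lost in Kmt2d+/+ without any 1 of its 3 clones, and in Kmt2d-/- without any 1 clone. With clone as a block 3 inputs were called in each genotype. Bmp4, a ligand, was 170, 265 and 265 CPM in Kmt2d+/+ and 1096 and 358 CPM in Kmt2d-/- clones at day 0, which did not pass (log2 fold change 1.64 with SE 0.43; edgeR adjusted p = 0.0799). At day 7 the Bmp4 levels overlapped, at 158, 257 and 244 against 184 and 270.4 CPM (log2 fold change 0.05 with SE 0.44; edgeR adjusted p = 0.969). For genotype edgeR called 0 inputs at either day, 2 at day 7 and 4 at day 0 had an unadjusted p under 0.05, DESeq2 called 2 and 4, and limma-voom 1 and 0. The 2 at day 7 were Bmp6 and Bmpr1b. Bmp6 was 4.03, 1.27 and 0.627 CPM in Kmt2d+/+ and 27.2 and 38.0 CPM in Kmt2d-/- clones (log2 fold change 4.05 with SE 0.98; edgeR adjusted p = 0.0694). Bmpr1b was 0.0822, 0.265 and 0.109 CPM against 0 in both Kmt2d-/- clones (edgeR adjusted p = 0.057), near the level of 3 counts.

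Of 22 listed genes of osteoblasts and hypertrophic chondrocytes, 19 were tested. They are called targets below, but whether Runx2 or Sp7 acts on them in these cells was not tested. From day 0 to day 7, 16 of the 19 had a log2 fold change above 0 in Kmt2d+/+ clones. The median over the list was 1.36, against 0.03 over all genes. In Kmt2d-/- clones 13 were above 0, with a median of 1.27 against -0.00297. In edgeR 5 were called higher and 0 lower in Kmt2d+/+ clones, where 3.05% of all genes were called higher. The 5 include Ifitm5, which passed the filter on low counts only through day 7 libraries. In Kmt2d-/- clones 2 were called higher and 0 lower, where 1.27% of all genes were called in either direction. With clone as a block the counts were 9 and 5, in DESeq2 8 and 5, in limma-voom 3 and 0, and with 1 clone left out 0 to 2 in either genotype. The osteocalcin genes Bglap and Bglap2, which encode a matrix protein of mature osteoblasts, rose in both genotypes in edgeR. In limma-voom their rise in Kmt2d-/- clones did not pass (adjusted p = 0.0864 for Bglap and 0.117 for Bglap2). Bglap was 0.2, 0.557 and 1.07 CPM at day 0, then 3.68, 6.04 and 10.3 CPM at day 7 in Kmt2d+/+ clones (log2 fold change 3.43; edgeR adjusted p = 0.0292). Bglap in Kmt2d-/- clones was 0.0483 and 0.138 CPM at day 0, then 3.54 and 2.42 CPM at day 7 (log2 fold change 4.96; edgeR adjusted p = 0.0448). The 2 genes are near-identical copies, and their split of reads is uncertain. Where a day 0 level is near that of 3 counts, as for Bglap in Kmt2d-/- clones, the fitted fold change depends on the prior count and is no bound.

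Ibsp, which encodes bone sialoprotein, was 5.44, 31.4 and 15.3 CPM at day 0, then 729, 89.7 and 236 CPM at day 7 in Kmt2d+/+ clones (log2 fold change 4.33; edgeR adjusted p = 0.0392, and 0.058 with clone as a block). Kmt2d-/- clones had 4.15 and 17.4 CPM at day 0, then 367 and 381 CPM at day 7 (log2 fold change 5.12; adjusted p = 0.0846). Dmp1, a matrix protein of osteocytes, was 0.372 to 1.18 CPM at day 0, then 5.18, 70.3 and 102 CPM at day 7 in Kmt2d+/+ clones (log2 fold change 6.33; adjusted p = 0.0381 in edgeR and 0.147 in limma-voom). Dmp1 in Kmt2d-/- clones was 20.1 and 1.36 CPM at day 7 (log2 fold change 3.87; adjusted p = 0.272). Ifitm5, an osteoblast membrane protein, was at most 0.139 CPM at day 0 and 0.28 to 4.82 CPM at day 7 in Kmt2d+/+ clones (adjusted p = 0.0392 in edgeR and 0.147 in limma-voom). Like Dlx3, Ifitm5 passed the filter only through day 7 libraries, so its call is no test of a rise. The collagen gene Col1a1 had log2 fold changes of 0.16 and -0.15 (edgeR adjusted p = 0.858 and 0.943).

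For genotype 0 of the 19 targets were called by edgeR at either day. At each day fewer than 5 had an unadjusted p under 0.05, 2 at day 7 and 4 at day 0, DESeq2 called 3 at each and limma-voom 0. For the interaction, edgeR, DESeq2 and limma-voom each called 0 targets and 0 had an unadjusted p under 0.05. The genotype medians over the targets were 0.05 at day 7 and 0.22 at day 0. The 2 with an unadjusted p under 0.05 at day 7 were both lower in Kmt2d-/- clones. They were Phex (log2 fold change -3.06; edgeR adjusted p = 0.0598) and Postn (-1.76; adjusted p = 0.108). The 4 at day 0 were Phex (-2.96; edgeR adjusted p = 0.0632), Bglap (-2.69), Bglap2 (-2.80) and Col1a2 (0.73).

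**Figure D5:**
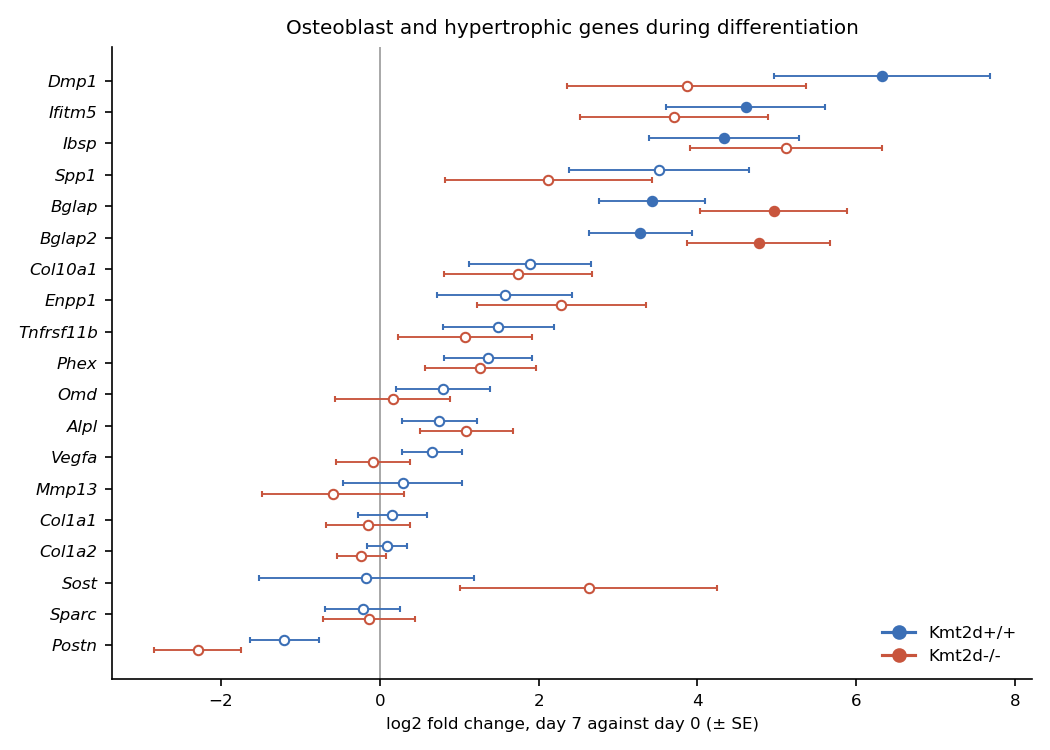
Log2 fold change from day 0 to day 7 with its standard error for the 19 tested target genes, in Kmt2d+/+ (blue) and Kmt2d-/- (red) clones, from the edgeR model; filled points passed an adjusted p of 0.05. The matrix and mineralisation genes Dmp1, Ifitm5, Ibsp, Bglap and Bglap2 were on the right in both genotypes, and Postn was on the left.

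Of the 14 other genes of these families, 8 were tested. The Dlx genes come in convergent pairs, and Dlx4, the partner of Dlx3 on chromosome 11, rose 7 days into differentiation in Kmt2d+/+ clones, from 5.44, 6.71 and 6.79 to 25.1, 13.5 and 14.0 CPM (log2 fold change 1.47; edgeR adjusted p = 0.0498). Dlx2, of the Dlx1 and Dlx2 pair on chromosome 2, fell from 32.0, 28.0 and 28.7 to 14.5, 8.36 and 15.5 CPM (log2 fold change -1.21; edgeR adjusted p = 0.0378), and Dlx1 had a log2 fold change of -1.17 (adjusted p = 0.0729). Both calls were lost without any 1 clone, and that of Dlx4 also in limma-voom (adjusted p = 0.0533). In Kmt2d-/- clones these genes moved in the same directions, with 0 edgeR calls for day. Dlx2 went from 40.9 and 27.3 to 14.2 and 12.6 CPM, and Dlx1 from 26.9 and 29.6 to 11.6 and 11.3 CPM. Dlx4 went from 7.15 and 3.39 to 10.8 and 7.65 CPM. Sp8, a relative of Sp7, was called higher in Kmt2d-/- clones at day 0 from very low levels, 0.29 and 1.93 CPM against 0 to 0.0464 CPM (edgeR adjusted p = 0.0446). The day 7 libraries had at most 0.165 CPM, so Sp8 passed the filter on low counts only through the group where it was high. Its call is therefore a description and not a test. The Sp8 call was lost with clone as a block (adjusted p = 0.0937), in limma-voom (0.0778), with only the groups compared in the edgeR fit (0.128) and without any 1 of the 5 clones, and its fitted fold is not given because the Kmt2d+/+ libraries were under the level of 3 counts. Sp1 and Sp3, the broadly expressed members of the Sp family, were 126 to 175 and 97.5 to 145 CPM over the 10 libraries and had no edgeR call.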

How the data were processed

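Poly(A) RNA libraries of 5 ATDC5 clones at 2 days were each run on 2 flow cells, giving 20 columns. The authors deposited one estimated count per gene and run, not normalized. Salmon and the GRCm38 build, with edgeR, limma and DESeq2, are named per the submitters' processing notes. Which versions, annotation and strand setting were used is not given in the sources used here. Estimated counts split reads between similar transcripts. Runs were summed and rounded. Of the nonzero values, 0.351% were within 0.001 of a whole number, and 481 Ensembl identifiers had no symbol in GENCODE vM21. Exon lengths and positions come from that annotation.

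Main test: edgeR 4.0.16 (R 4.3.3), TMM, filterByExpr, quasi-likelihood fit of 4 group means over 10 libraries with 6 residual degrees of freedom, Benjamini-Hochberg adjustment over 15467 genes, threshold 0.05. The biological coefficient of variation was 0.385. Alternatives: DESeq2 1.42.0, limma-voom 3.58.1, DESeq2 size factors, no filter, each run alone, only the groups compared, each clone left out, and clone as a block. The scripts were tested on simulated data with known changes.

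The same clone was sampled at both days, which pairs the libraries. Deviations from group means correlated between the days of a clone with r = 0.363 to 0.571 across genes. With clone nested in genotype, the block was a random effect in limma-voom (correlation 0.49) for genotype and a clone term in edgeR for day.

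The 9 members and all gene lists were chosen with earlier results of these data known. Named were all members, up to 4 called genes per list and comparison by smallest adjusted p (otherwise the most abundant), Kmt2d, Col2a1 and the 3 nearest profiles of Runx2, Dlx5, Msx2 and Sp7. Cbfb, Twist1 and other list genes outside this rule were chosen after their values were seen. Dlx6os1, Dlx1as and Runx2os1 to Runx2os3 were not analysed here.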

Additional observations from a re-analysis of the deposited data

How the results depend on the processing

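Of 574 values of single factors under the alternatives, 516 kept both direction and side of the threshold, 25 kept the direction and lost the call, 11 gained a call and 22 changed sign. The count of called factors moved as follows. With DESeq2 it was 2 for genotype at day 7, 2 at day 0, 4 for day in Kmt2d+/+ and 3 for day in Kmt2d-/- clones. With limma-voom it was 1 for day in Kmt2d+/+ clones. With only the groups compared in the fit it was 0 for genotype at day 0 and 0 for day in either genotype. With each clone left out it was 0 to 0 for genotype at day 0, 0 to 2 for day in Kmt2d+/+ and 0 to 0 for day in Kmt2d-/- clones. The rise of Runx2 in Kmt2d+/+ clones lost its call in run 2 alone (adjusted p = 0.0558, edgeR).

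With clone as a replicate block the count of called factors was 0 for genotype at day 0. For day it was 4 in Kmt2d+/+ clones (Runx1, Runx2, Sp7 and Dlx3) and 2 in Kmt2d-/- clones (Runx1 and Dlx3). A rise of Dlx3 was built into its passing the filter, so its calls are no test. With the block the count was 0 for genotype at day 7 and for the interaction, as without the block. The number of genes called with the block was 442 for genotype at day 7 (290 without), 193 at day 0 (332 without), 2789 for day in Kmt2d+/+ (786 without) and 862 in Kmt2d-/- clones (196 without).

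Counts of all genes called also moved by over 1.5 times elsewhere. DESeq2 called 1577, 1607, 2240 and 1009 genes in these 4 comparisons and 22 for the interaction. For genotype at day 7, limma-voom called 533 and flow-cell run 2 alone 184. With only the groups compared, the calls were 55 for genotype at day 7, 9 at day 0 and 0 for day in Kmt2d-/- clones. With each clone left out they were 10 to 272, 10 to 912, 0 to 862 and 0 to 183. The cause was not tested.

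For genotype at day 7, Sp7 was -0.10 in run 2 alone, -0.00479 with only the groups compared and -0.25 to 0.35 with each clone left out. Leaving out each clone gave -0.12 to 0.30 for Runx2, -0.032 to 0.25 for Runx3 and -0.34 to 3.99 for Dlx3. For genotype at day 0, Dlx3 was -2.00 in run 1 alone and -2.13 to 3.41 with each clone left out, where Runx3 was -0.67 to 0.18 and Dlx6 -0.19 to 0.48. For day in Kmt2d+/+ clones, Runx3 was -0.00753 in run 2 alone and -0.29 to 0.31 with each clone left out, where Dlx6 was -0.083 to 0.23. For the interaction, Dlx3 was -1.87 in run 2 alone and Msx1 0.14 in run 1 alone. Leaving out each clone gave interactions of -1.76 to 3.21 for Dlx3, -0.42 to 0.47 for Dlx5 and -0.45 to 0.39 for Msx1. The cause was not tested. Leaving out a clone leaves fewer samples, and without a Kmt2d-/- clone the lone library of a group is assumed to vary like the other groups. Depth limits Dlx3, with at most 2 counts per library at day 0, and its run 2 level was 0.336 to 3.72 times that of run 1, against 0.692 to 1.33 times for the other 8 factors.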
